A study of Mus musculus with 3 samples.

Results

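The insulin and insulin-like growth factor (IGF) receptors, their substrates and 1 adaptor were followed here across the cells of the mouse islet. The set holds 7 genes, chosen by name and listed as Insr, Igf1r, Insrr, Igf2r, Irs1, Irs2 and Grb10, out of 31053 genes in the count table, and all 7 were found there. The rule uses no measured value, but the members and the gene lists used below were chosen with earlier results of these data known. Islets came from male C57Bl6/J mice, retired breeders 7 to 8 months old, in 3 groups with 1 library each. Control mice carried pumps without S961 for 2 weeks, and S961 mice carried pumps that gave S961 at 20 nM per week for 2 weeks. Recovered mice had received S961 at 20 nM per week for 2 weeks before their pumps were removed. Islets of every group were cultured overnight before single cells were captured with the 10x Genomics 3′ assay. The labels give neither the length of recovery nor the number of mice behind a library. With 1 library per group there are no replicates, so no test was run and every ratio compares 2 libraries; every interval is a 95% interval that covers counting error only.

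Insr is the tyrosine kinase receptor of insulin, and S961 is a peptide that occupies it without activating it. The active receptor phosphorylates the docking proteins Irs1 and Irs2, which start the PI3-kinase and Akt pathway, and Akt in turn keeps FoxO transcription factors out of the nucleus. In beta cells, the insulin-producing cells of the islet, signalling through Irs2 is known to sustain cell mass. Igf1r is the kinase receptor of the IGFs and has been used as a surface marker of aged mouse beta cells. Insrr is the third kinase of the family, responds to alkaline pH rather than to insulin, and is known to be expressed in beta cells. Igf2r, the mannose 6-phosphate receptor, has no kinase and carries IGF2 to the lysosome. Grb10 is an adaptor that binds the active receptors and damps them.

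The genes lie on 6 chromosomes of GRCm38 (mm10). GENCODE M21 places Insr at chromosome 8, 3122061 to 3279617, and Irs2 on the same chromosome at 10984681 to 11008458, both on the minus strand. Igf1r lies on chromosome 7 at 67952827 to 68233668, and Insrr on chromosome 3 at 87796951 to 87816101, both on the plus strand. Irs1 lies on chromosome 1 at 82233101 to 82291416, Igf2r on chromosome 17 at 12682406 to 12769664 and Grb10 on chromosome 11 at 11930508 to 12038683, all on the minus strand. All 7 are protein coding. Insr, Insrr, Igf2r, Irs1 and Irs2 each overlap a gene on the opposite strand, which for all but Irs2 is in the count table (for Insrr it is Pear1 and for Igf2r the noncoding RNA Airn). Whether the counting used strand is not given in the sources used here, so reads of such partners may be included.

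Among the members with a promoter entry, Irs1 and Irs2 are those whose promoters hold a FoxO-type motif, which is tied to insulin action. Their sequences are shown because FoxO factors are known to act on Irs2 through such a site. Of the 7 genes, 5 had a promoter entry in the RefSeq table (GRCm38.p6, 250 bases before to 50 after the start). Insr and Insrr had none and were not searched. The stretches below are read 5′ to 3′ on the gene's own strand, and capitals mark the FoxO-type core TGTTTTG and the E-box CACGTG, which overlap in Irs1.
Irs1, chr1:82291520-82291579, minus strand: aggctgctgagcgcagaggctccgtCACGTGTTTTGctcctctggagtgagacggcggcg
Irs2, chr8:11008939-11008998, minus strand: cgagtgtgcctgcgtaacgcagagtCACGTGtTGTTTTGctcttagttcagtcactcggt
Both genes carry the E-box at or within a few bases of the FoxO-type core, upstream of the start. The core began 111 and 32 bases before the start of Irs1 and 37 bases before that of Irs2. On either strand, TGTTTTG was found in 6.28% of 32851 promoters of this length, CACGTG in 7.15%, both in 0.408%, and both at most 5 bases apart or overlapping in 9 promoters (0.0274%). The pair of motifs was chosen after these sequences had been seen. Promoter entries of Igf1r and Grb10 held neither motif, and that of Igf2r held CACGTG at 2 places. A match of letters is a description and not a binding site.

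The libraries differed in depth and in RNA quality, and this touches the results that follow. Filters left 4267 control, 3430 S961 and 3513 recovered cells, whose medians were 6501, 9944 and 8577 unique molecular identifiers (UMIs, each a captured RNA molecule) per cell. The beta-like class had 2949, 1492 and 2077 of these cells, with median depths of 7479, 14013.5 and 10279 UMIs and median mitochondrial shares of 6.94%, 4.52% and 7.25%. None of its 10 markers was at 0 in any library. Scrublet marked 3 of 4270 control cells as doublets, against 77 of 3507 S961 cells, so doublets were nearly unremoved in control. Pairs of libraries shared 2 to 8 analysed barcodes. Clusters 0, 1 and 4 made up the beta-like class. Cluster 0 (led by Mlxipl, Insrr and Ucn3) took 35.9% of the class in control, 52.6% in S961 and 51.4% in the recovered library. Cluster 1 (led by Pdyn, Ttyh1 and Igf1r) took 46.9%, 40.6% and 36.4%, and cluster 4, led by stress genes, 17.2%, 6.77% and 12.3%. Levels are given in CPM, the UMIs of a gene scaled to a class total of 1000000. In these units 4 stress markers summed to 783, 361 and 471 in beta-like cells. A gene counts as higher or lower when the ratio of 2 libraries passes 5 to 4 (0.32 on the log2 scale), called the fold threshold below, and as measured with at least 50 UMIs over both.

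**Figure D1:**
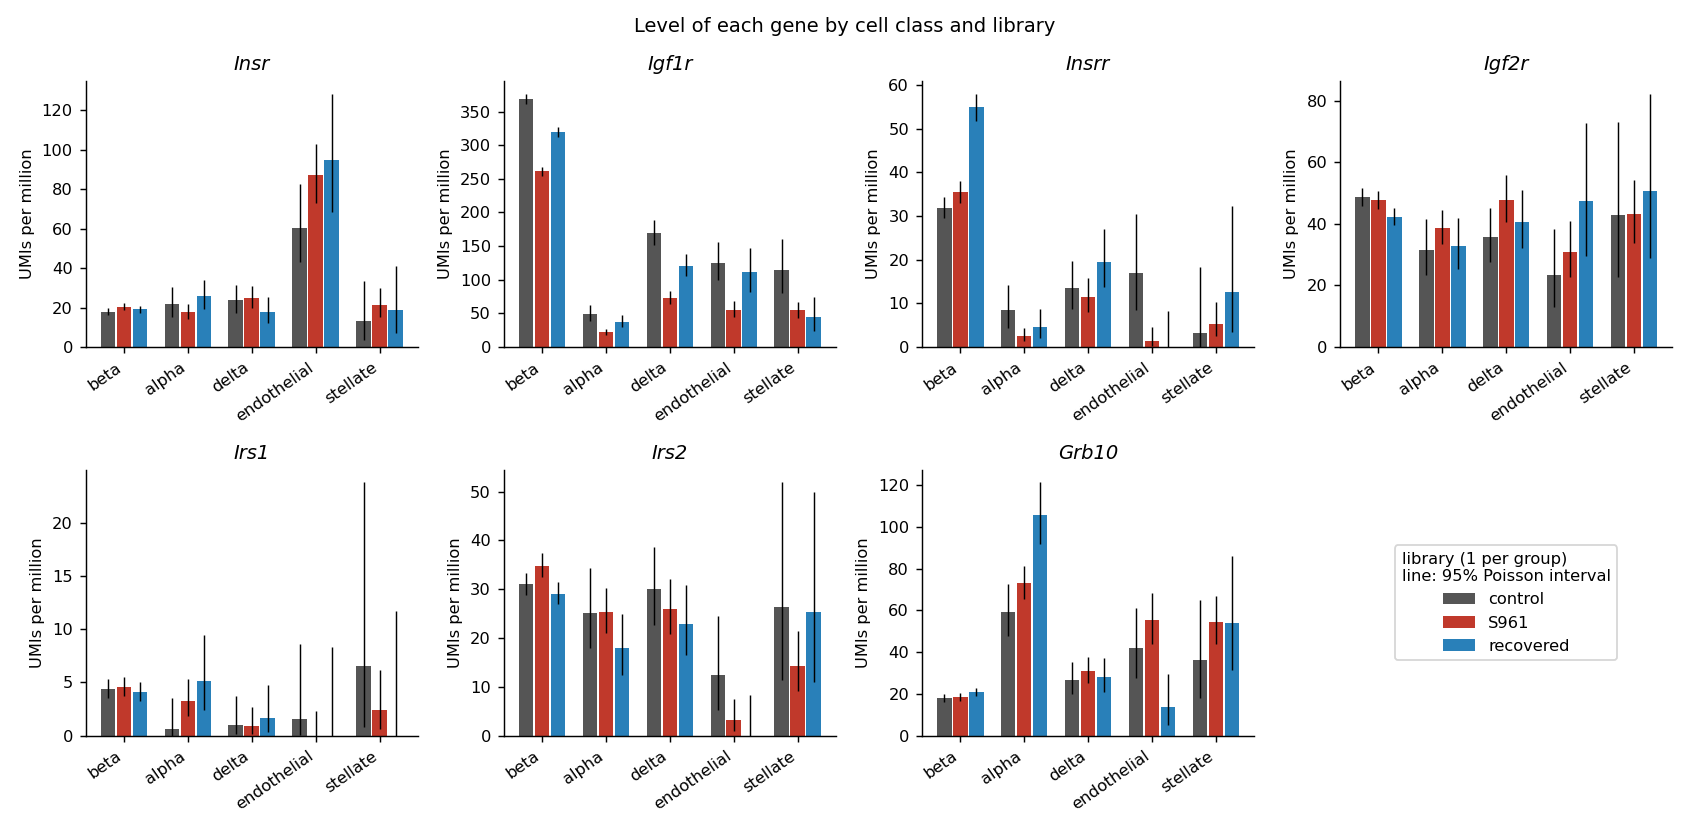
Each panel plots 1 gene, with CPM on a linear axis from 0 for 5 cell classes in the control (grey), S961 (red) and recovered (blue) library; lines are 95% Poisson intervals. Igf1r stands at 369, 261 and 319 CPM in beta-like cells, Insr reaches 60.5 to 95.03 CPM in endothelial-like cells, and Grb10 reaches 59.3 to 106 CPM in alpha-like cells.

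In beta-like cells, Igf1r was the 1 member past the fold threshold between S961 and control, and it was lower. Insr, the target of S961, stayed within the threshold in every comparison, as did Igf2r, Irs1, Irs2 and Grb10. Insrr was higher in the recovered library than in both others. S961 over control thus had 0 members higher, 1 lower and 6 neither, while 27.1% of 11621 measured genes passed the threshold (15% higher and 12.1% lower). Recovered over S961 had 1 member higher, 0 lower and 6 neither, beside 23.5% of all measured genes (14% higher and 9.49% lower). Recovered over control also had 1 higher, 0 lower and 6 neither, beside 15.4% (11.1% higher and 4.36% lower). At a threshold of 1.5-fold, S961 over control had 0 members. The members' median log2 ratio was 0.05, −0.11 and −0.09 in the 3 comparisons, beside −0.02, 0.06 and 0.05 for all measured genes.

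**Figure D2:**
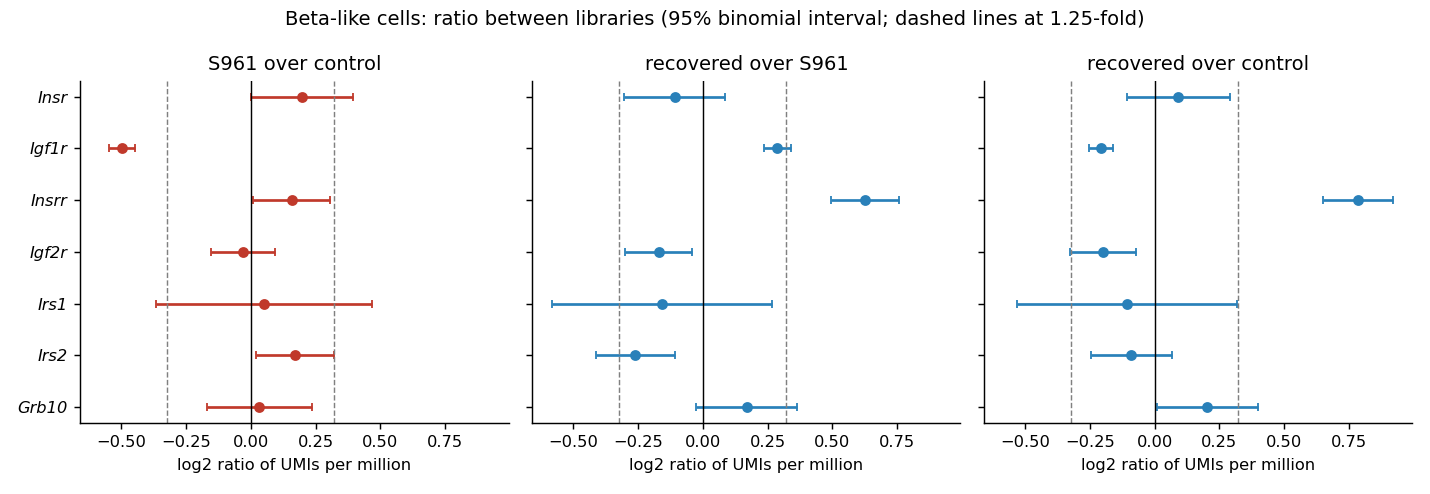
Log2 ratios of CPM in beta-like cells are plotted for the 7 genes in 3 panels, 1 per pair of libraries, with 95% binomial intervals and dashed lines at the fold threshold. Igf1r lies at −0.50 for S961 over control and Insrr at 0.63 and 0.78 in the panels with the recovered library; the other points lie between the dashed lines.

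Insr, the receptor that S961 blocks, had 17.9 CPM in control beta-like cells (16.2 to 19.7), 20.5 in S961 (18.7 to 22.5) and 19.1 in recovered (17.3 to 20.9). The 3 intervals overlapped, with S961 the highest. S961 over control gave a log2 ratio of 0.20 (0.00 to 0.40). This value moved with the depth of the cells compared. Among beta-like cells of 6000 to 12000 UMIs, Insr stood at 16.4 CPM in control and 29.7 in S961 (log2 0.86, 0.42 to 1.28), and at 12000 to 24000 UMIs at 15.5 and 22.0 (0.50, 0.10 to 0.92). At 3000 to 6000 UMIs the order was the opposite, 24.8 against 13.1 (−0.93, −1.98 to −0.01). By mitochondrial share it was −0.28 (−0.93 to 0.44) below 4%, 0.51 (0.22 to 0.81) at 4 to 7% and 0.35 (0.00 to 0.69) at 7 to 20%. Recovered over control was 0.09 (−0.11 to 0.29) in all beta-like cells and lay between 0.21 and 0.26 in both deeper bands. The S961 library held 219 cells in the 6000 to 12000 band, against 1739 in control, so the bands compare different portions of the 2 populations. Cells outside 3000 to 24000 UMIs were in no band. From shallow to deep, the bands held 197, 219 and 592 of 1492 S961 cells and 676, 1739 and 289 of 2949 control cells. They held 11, 58 and 229 of the 445 Insr UMIs of S961, and 81, 241 and 65 of the 406 of control. The shallowest band held 676 control, 197 S961 and 174 recovered cells, and there S961 was lower than control past the threshold for 58.9% of 6803 measured genes, with a median log2 ratio of −0.47. What part depth has in the ratio over all cells was not tested.

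Igf1r had 369 CPM in control beta-like cells (361 to 377), 261 in S961 (254 to 268) and 319 in recovered (312 to 326). The intervals of the 3 libraries did not overlap, and S961 was the lowest and control the highest. The log2 ratio was −0.50 for S961 over control (−0.55 to −0.45), 0.29 for recovered over S961 (0.24 to 0.34) and −0.21 for recovered over control (−0.25 to −0.16). Under the 15 alternatives the first stayed below zero, from −1.69 to −0.45. Cells of one library differed widely: the median beta-like cell held 2, 1 and 2 Igf1r UMIs in control, S961 and recovered, and the highest held 40, 43 and 36. At least 5 Igf1r UMIs were found in 20.8%, 27.3% and 26.3% of the beta-like cells (control, S961, recovered), although S961 had the lowest share with any Igf1r UMI. These cells were not thinned, and the cut of 5 UMIs was the same at every depth. Their median depths were 7479, 14013.5 and 10279 UMIs, with control the shallowest. The part of depth in these shares was not tested.

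Shares of cells followed the CPM once cells were brought to 1 depth. With each cell thinned to 2000 UMIs, Igf1r was detected in 42.3% (40.4 to 44.1) of 2795 control, 27.3% (25.02 to 29.7) of 1416 S961 and 40.2% (38.0 to 42.4) of 2026 recovered beta-like cells; 154, 76 and 51 shallower cells were left out. Without thinning the shares were 73.6%, 61.3% and 78.0%. Alpha-like cells, the class of the 5 with the lowest Igf1r CPM in each library, gave thinned shares of 9.24%, 3.94% and 8.12%, at median depths of 4780, 10363 and 6781.5 UMIs. The S961 share of beta-like cells lay below both other libraries and above that level.

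The Igf1r level climbed with depth inside each library, so depth was held fixed. At 3000 to 6000 UMIs the 3 libraries had 249, 77.2 and 179 CPM (control, S961, recovered), at 6000 to 12000 UMIs 361, 172 and 300.3, and at 12000 to 24000 UMIs 491, 278 and 347. S961 was the lowest in each band and control the highest. S961 over control was −1.69, −1.07 and −0.82 in the 3 bands, further from 0 than over all cells. In the shallowest band 58.9% of all measured genes were lower in S961 past the threshold, with a median log2 ratio of −0.47. Cells outside 3000 to 24000 UMIs were in no band. From shallow to deep, the bands held 65, 335 and 2896 of the 5666 Igf1r UMIs of S961. In control they held 814, 5309 and 2054 of 8364. The order also held by cluster for S961 against control: 139 against 216 CPM in cluster 0 (−0.63), 359 against 463 in cluster 1 (−0.37) and 274 against 331 in the stress-led cluster 4 (−0.27). Recovered and control were close in cluster 0, at 217 and 216 CPM (0.00, −0.09 to 0.10). Clusters 0 and 1 were formed with Igf1r among their genes, and S961 beta-like cells lay more in cluster 0, where Igf1r is low; the values within clusters are therefore a description.

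Insrr had 31.9 CPM in control beta-like cells (29.6 to 34.3), 35.5 in S961 (33.1 to 38.1) and 54.9 in recovered (51.9 to 58.0). The recovered interval lay above both others, which overlapped. Recovered over control was 0.78 (0.65 to 0.92), a ratio of 1.72, and recovered over S961 was 0.63 (0.50 to 0.76). Recovered over control stayed past the fold threshold under the 15 alternatives, from 0.38 to 1.16. It was 0.63 in cluster 0, 0.64 in cluster 1 and 0.46 (−0.04 to 0.96) in cluster 4.

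The position of S961 for Insrr depended on which cells were compared. In cells of 6000 to 12000 UMIs, Insrr was at 31.7, 71.3 and 63.5 CPM (control, S961, recovered), and in cells of 12000 to 24000 UMIs at 27.7, 41.0 and 45.4. Both bands put S961 near recovered and above control, with S961 over control at 1.17 (0.88 to 1.44) and 0.57 (0.27 to 0.87). Cells outside 3000 to 24000 UMIs were in no band. From shallow to deep, the bands held 18, 139 and 428 of the 771 Insrr UMIs of S961 beta-like cells. In control they held 121, 467 and 116 of 723. The position of S961 by band is thus shown for part of its cells. In cells of 3000 to 6000 UMIs, S961 was the lowest at 21.4 CPM, beside 37.1 in control and 82.8 in recovered. Recovered over S961 was −0.17 and 0.15 in the deeper bands, within the fold threshold, and 1.95 (1.19 to 2.79) at 3000 to 6000 UMIs. By mitochondrial share it was within the threshold below 4% (0.24, −0.30 to 0.74) and at 4 to 7% (0.12, −0.08 to 0.32), and past it at 7 to 20% (0.52, 0.30 to 0.75). With cells thinned to 2000 UMIs, Insrr was detected in 6.94% (6.03 to 7.95) in control, 6.57% (5.33 to 7.99) in S961 and 12.2% (10.8 to 13.7) in recovered, and in 20.2%, 32.4% and 40.3% without thinning. Thinned to 4000 UMIs the shares were 12.8%, 14.8% and 19.7%, and here too recovered was the highest. In endothelial-like cells thinned shares were 3.12% of 128 control cells, 0 of 197 S961 cells (which allows up to 1.52%) and 0 of 72 recovered cells (up to 4.17%). Median depths there were 3312, 6038 and 4306 UMIs. Control endothelial-like cells had 11 Insrr UMIs (17.1 CPM, 8.52 to 30.5), so these shares give no common floor for the 3 libraries.

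**Figure D3:**
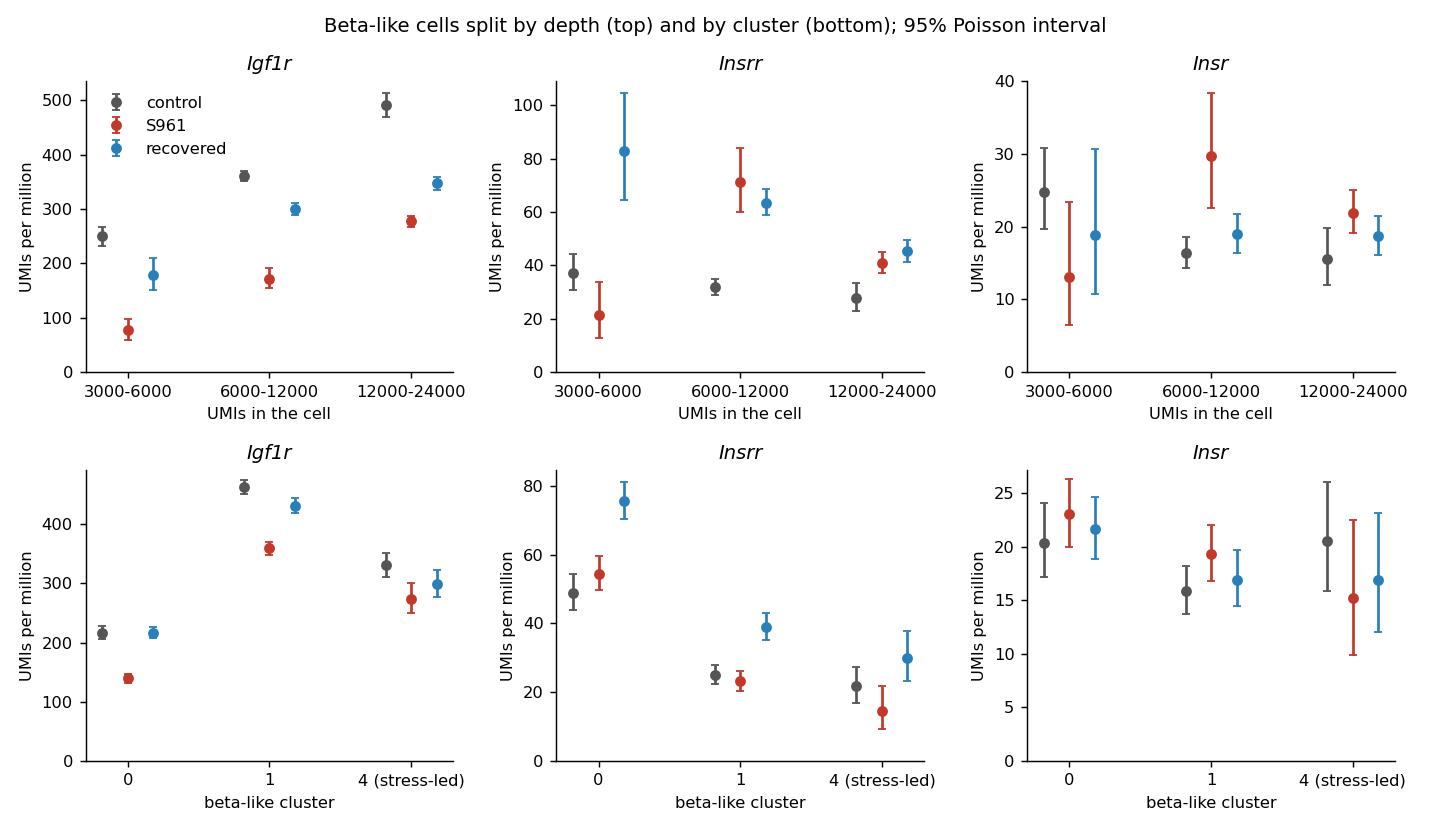
CPM of Igf1r, Insrr and Insr in beta-like cells is plotted for 3 bands of UMIs per cell (top row) and for the 3 beta-like clusters (bottom row), with 1 point per library and 95% Poisson intervals. Igf1r in S961 lies below control in each band and cluster, while Insrr in S961 lies above control in the 2 deeper bands and below it, at 21.4 against 37.1 CPM, in the shallowest.

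Igf2r had 48.6 CPM in control (45.8 to 51.6), 47.7 in S961 (44.8 to 50.7) and 42.4 in recovered (39.7 to 45.2) beta-like cells. Recovered was the lowest and its interval lay below that of control, with a log2 ratio of −0.20 (−0.33 to −0.07), within the fold threshold. S961 over control was −0.03 (−0.15 to 0.09) over all beta-like cells, and 0.05 and −0.12 in the 2 deeper bands. At 3000 to 6000 UMIs it was −1.13 (−1.90 to −0.44), from 161 UMIs in control and 19 in S961.

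The docking proteins lay within the fold threshold in the sums over all beta-like cells. Irs2 had 31.0 CPM in control (28.7 to 33.4), 34.9 in S961 (32.4 to 37.4) and 29.1 in recovered (26.9 to 31.4), with S961 the highest and its interval above that of recovered. Log2 ratios were 0.17 (0.02 to 0.32) for S961 over control, −0.26 (−0.41 to −0.11) for recovered over S961 and −0.09 (−0.25 to 0.07) for recovered over control. In the 2 deeper bands S961 over control was 0.03 and 0.05, and at 3000 to 6000 UMIs, where Irs2 stood at 27.6 CPM in control and 15.4 in S961, it was −0.84 (−1.80 to 0.01). An exception was the stress-led cluster 4, where Irs2 stood at 23.2 CPM in 507 control cells, 43.8 in 101 S961 cells and 25.6 in 255 recovered cells (S961 over control 0.91, 0.43 to 1.40). Irs1 was sparse, with 100, 99 and 92 UMIs in the 3 beta-like sums, or 4.41, 4.56 and 4.10 CPM with overlapping intervals. Its interval for S961 over control, −0.36 to 0.47, leaves changes of up to that size undetectable at this depth. In the bands of 6000 to 12000 and 12000 to 24000 UMIs, S961 over control was past the threshold for Irs1, at 0.79 (−0.06 to 1.57) from 17 and 74 UMIs and at 0.66 (−0.21 to 1.62) from 55 and 14 UMIs, with both intervals holding 0. Irs1 and Irs2, whose promoters share the paired motifs printed above, thus both lay within the fold threshold in these sums.

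Grb10, the inhibitory adaptor, had 18.1 CPM in control (16.4 to 19.9), 18.5 in S961 (16.7 to 20.4) and 20.8 in recovered (18.9 to 22.8) beta-like cells. The intervals overlapped in all 3 pairs, and recovered over control was 0.20 (0.01 to 0.40). At 3000 to 6000 UMIs Grb10 stood at 19.6 CPM in control and 5.94 in S961 (−1.72, −3.39 to −0.43), from 64 and 5 UMIs. All 6 members measured in that band were lower in S961 than in control past the threshold, as most genes were there. In cluster 1 recovered over control was 0.48 (0.20 to 0.77), with 15.8 CPM in control and 22.2 in recovered.

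Outside beta-like cells, RNA that leaks from beta cells, or cells captured together, can add to a level, and the insulin genes measure how much. Insulin UMIs were 3.51%, 0.61% and 1.73% of the alpha-like total in control, S961 and recovered, 7.63%, 0.303% and 7.44% of the delta-like total, 5.74%, 0.788% and 1.53% of the endothelial-like total and 10.4%, 1.41% and 2.79% of the stellate-like total. S961 was the lowest in each class. An estimate of beta-cell RNA was made by scaling the beta-like CPM of each gene to these insulin shares; it assumes that all insulin UMIs there come with other beta-cell RNA in proportion.

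As measured, S961 had less Igf1r than control in all 4 of these classes. Alpha-like cells, which make glucagon, had 49.6, 22.1 and 37.5 CPM in control, S961 and recovered, and S961 over control was −1.17 (−1.60 to −0.72). Delta-like cells, which make somatostatin, had 170, 73.0 and 121 CPM (−1.22, −1.46 to −0.97). Endothelial-like cells had 126, 55.2 and 111 CPM (−1.19), and stellate-like cells 115, 54.4 and 44.3 CPM (−1.08). The estimate from beta-cell RNA moved the same way: it was 42.0, 4.79 and 17.7 CPM in alpha-like cells and 91.4, 2.38 and 76.2 in delta-like cells. After it was taken off, alpha-like cells were left with 7.61, 17.3 and 19.7 CPM, so S961 over control turned to 1.19, and delta-like cells with 78.5, 70.6 and 44.9 CPM (−0.15). Endothelial-like cells were left with 57.0, 49.0 and 95.2 CPM (−0.22). In control stellate-like cells the estimate, 125 CPM, exceeded the measured level. In these 4 classes the lower Igf1r and the lower insulin share of S961 cannot be told apart.

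**Figure D4:**
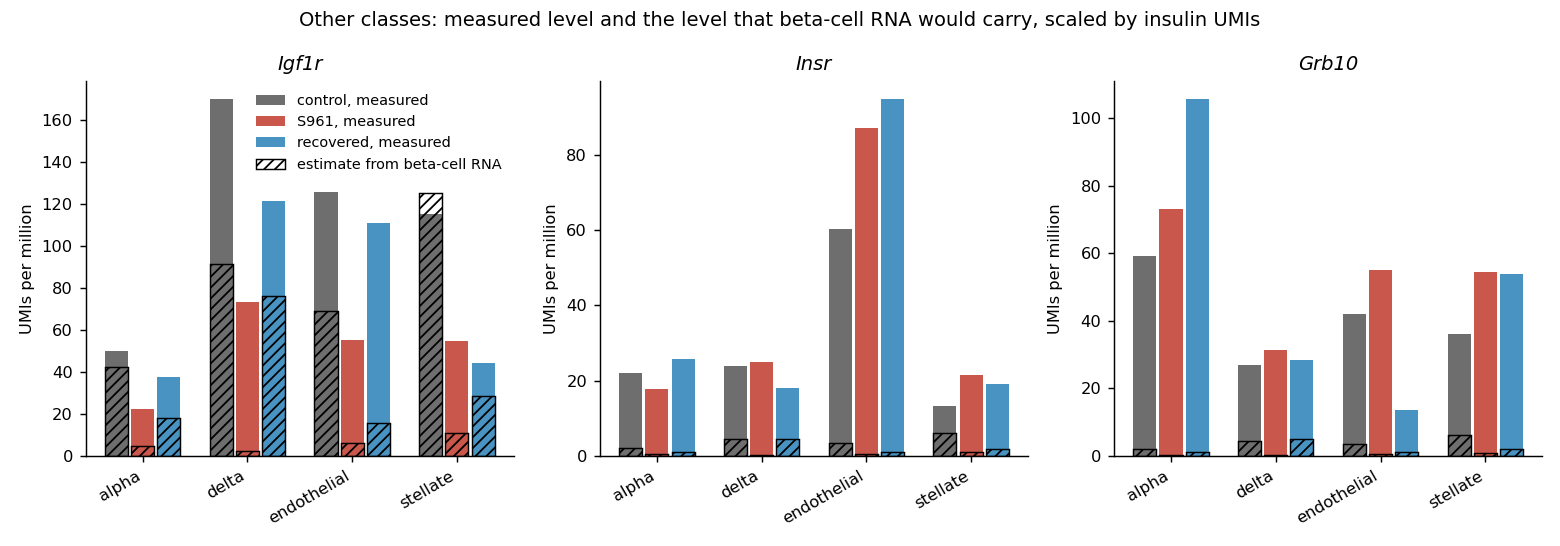
Solid bars give the measured CPM of Igf1r, Insr and Grb10 in 4 classes and 3 libraries, and hatched bars the level estimated to come from beta-cell RNA, scaled by insulin UMIs. For Igf1r the hatched bar makes up 42.0 of 49.6 CPM in control alpha-like cells, while for Insr and Grb10 it is at most 6.12 CPM.

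Insr had its highest level in endothelial-like cells, which line blood vessels. They had 60.5 CPM in control (43.0 to 82.7), 87.2 in S961 (73.2 to 103) and 95.03 in recovered (68.5 to 128), from 39, 136 and 42 UMIs. The intervals overlapped; S961 over control was 0.53 (0.00 to 1.08) and recovered over control 0.65 (−0.01 to 1.32). The estimate from beta-cell RNA was at most 3.33 CPM there. Insr in alpha-like cells was 21.9, 17.8 and 25.7 CPM and in delta-like cells 23.8, 24.8 and 17.9 CPM, near the beta-like level, with overlapping intervals between libraries. Stellate-like cells had 13.2, 21.5 and 19.0 CPM. The order of the classes for Insr was thus endothelial-like first, in each library, and beta-, alpha-, delta- and stellate-like cells not separable by their intervals. In 81 macrophage-like cells of the S961 library, Insr had 1 UMI, Grb10 0 (up to 4.61 CPM) and Irs2 18 UMIs (27.7 CPM, 16.4 to 43.7); 22 control and 18 recovered macrophage-like cells were too few to set beside them.

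Grb10 had its highest level in alpha-like cells, with 59.3 CPM in control (47.8 to 72.7), 73.0 in S961 (65.6 to 81.0) and 106 in recovered (91.8 to 121). The recovered interval lay above both others. In control and S961 the alpha-like interval overlapped that of endothelial-like cells, so the first place of the alpha-like class was clear in the recovered library. Recovered over control was 0.83 (0.47 to 1.21) and recovered over S961 0.53 (0.28 to 0.79), and the estimate from beta-cell RNA was at most 2.06 CPM. Under the alternatives recovered over control ranged from 0.77 to 1.05. The 3 markers of pancreatic polypeptide cells summed to 135399, 135236 and 123706 CPM in alpha-like cells, and to 71912, 100817 and 70425 in delta-like cells. Their part in the Grb10 level was not tested. Grb10 was 26.9, 31.2 and 28.2 CPM in delta-like cells, with overlapping intervals, and 36.2, 54.4 and 53.8 in stellate-like cells. Endothelial-like cells had 41.9, 55.2 and 13.6 CPM, the last from 6 UMIs.

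Counts of members past the fold threshold in the other classes are small and stand beside a wide background. In alpha-like cells 5 members were measured, and 1 passed for S961 over control (Igf1r, beside 27.4% of all measured genes), 4 for recovered over S961 (Insr, Igf1r and Grb10 higher and Irs2 lower, beside 25.7%) and 3 for recovered over control (27.5%). Alpha-like intervals held 0 for Insr and Irs2 in recovered over S961 and for Igf1r and Irs2 in recovered over control. In delta-like cells 6 were measured, and 2 passed for S961 over control (33.5%), 3 for recovered over S961 (28.9%) and 4 for recovered over control (24.5%). Delta-like intervals held 0 for Insr in recovered over S961 and for Insr, Insrr and Irs2 in recovered over control. Beside Igf1r, the delta-like gene past the threshold for S961 over control was Igf2r, at 35.6 and 47.9 CPM (0.43, 0.01 to 0.86). In endothelial-like cells all 4 measured members passed for S961 over control (38.5%), but the interval of Insr began at 0.00 and those of Igf2r and Grb10 held 0. There 3 of 4 passed for recovered over S961 (34.8%, with the Igf2r interval holding 0) and 1 of 2 for recovered over control (36%, Insr, whose interval held 0). Stellate-like cells had 2 of 3 for S961 over control (55.9%, with the Grb10 interval holding 0) and 0 of 3 for recovered over S961 (55.4%). Irs2 was 25.1, 25.4 and 18.0 CPM in alpha-like cells, 29.96, 26.1 and 22.8 in delta-like cells and 12.4, 3.21 and 0 in endothelial-like cells, where the 0 of recovered allows up to 6.79 CPM. Insrr in delta-like cells was 13.4, 11.5 and 19.5 CPM, of which 7.90, 0.323 and 13.1 were estimated to come from beta-cell RNA.

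Cluster 5, with 9 of 10 beta markers detected but processed pseudogenes among its leading genes, was kept apart from the beta-like class, and the receptors differed there. It held 218 control, 213 S961 and 276 recovered cells, with a median mitochondrial share of 1.47%. Insr was at 2.75, 2.38 and 4.45 CPM in control, S961 and recovered and Grb10 at 1.38, 2.04 and 0.742 (2, 6 and 2 UMIs), each below the beta-like interval of its library. Igf1r was at 68.8, 75.1 and 79.0 CPM, also below, and its 3 intervals overlapped. Irs2, at 37.2, 40.8 and 41.2 CPM, overlapped the beta-like interval in control and S961 and lay above it in recovered. Another cluster led by pseudogenes, cluster 8, scored best for alpha markers and held 97, 99 and 99 cells. Its Insr was 0 (up to 13.1), 6.13 and 5.57 CPM, from 0, 3 and 2 UMIs. Grb10 there was 13.1, 2.04 and 2.79 CPM, from 3, 1 and 1 UMIs, each below the alpha-like interval of its library. Low Grb10 was thus not particular to cluster 5. For Insr, the cluster 8 intervals were 0 to 16.1, 1.26 to 17.9 and 0.675 to 20.1 CPM in control, S961 and recovered. They overlapped the alpha-like intervals of 15.2 to 30.6, 14.2 to 22.0 and 19.0 to 33.8 CPM. Whether Insr was also low in cluster 8 cannot be told from so few UMIs. Since both clusters were formed with these genes among the rest, this is a description.

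Genes that act below the receptors were followed as a list of 46 in beta-like cells, of which 44 were measured. For S961 over control 1 was higher and 3 lower, for recovered over S961 6 higher and 0 lower, and for recovered over control 3 higher and 0 lower; list medians were −0.03, 0.10 and 0.07. Past the threshold were thus 4, 6 and 3 of the 44, beside 27.1%, 23.5% and 15.4% of all measured genes, whose medians were −0.02, 0.06 and 0.05. The lower genes of S961 were Pik3r1, the regulatory subunit of PI3-kinase, at 55.7, 44.5 and 56.8 CPM in control, S961 and recovered (S961 over control −0.33, −0.45 to −0.20), and the mTOR complex subunits Rictor (41.8 in control and 33.1 in S961, −0.34) and Mlst8 (7.31 and 5.44, −0.43). Pik3r1 in S961 thus lay below both other libraries. Foxo4 was the higher gene, at 1.63 and 2.54 CPM (0.64, 0.01 to 1.28). In recovered over S961, Tsc1, a brake on mTOR (31.1 against 23.1 CPM, 0.43), and the adaptor Shc1 (82.8 against 64.4, 0.36) were higher, as were Pik3r1 and Mlst8.

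Brakes and adaptors at the receptors formed a list of 32 genes, 24 of them measured. S961 over control had 4 higher and 1 lower, recovered over S961 2 higher and 1 lower, and recovered over control 3 higher and 0 lower, beside the same shares of all measured genes. List medians were 0.00, 0.12 and 0.06. Nedd4, a ubiquitin ligase, was at 168 CPM in control and 215 in S961 (0.35, 0.29 to 0.41). The cytokine signal suppressor Socs2 was at 14.2, 18.5 and 22.0 CPM in control, S961 and recovered, with recovered over control at 0.63 (0.42 to 0.83). Ceacam1, which aids insulin clearance in liver, was at 4.63, 6.87 and 3.87 CPM, high in S961 and low in both others. Insig1 was at 24.7, 34.99 and 36.1 CPM; it is known as a sterol sensor of the endoplasmic reticulum rather than as a receptor brake. Cbl, a ubiquitin ligase, was the lower gene, at 28.1 CPM in control and 21.8 in S961 (−0.36).

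Genes named in textbook accounts as induced by FoxO factors formed a list of 20, 16 of them measured, with the members Insr and Irs2 left out. Pik3ca and Rictor also stand in the list of downstream genes. The list is not specific to beta cells, and whether FoxO factors induce each gene there was not tested. S961 over control had 5 higher and 2 lower, beside 15% of all measured genes higher and 12.1% lower. Recovered over S961 had 2 higher and 3 lower, beside 14% and 9.49%, and recovered over control 5 higher and 1 lower, beside 11.1% and 4.36%. List medians were 0.01, 0.03 and 0.10 in that order. Txnip, which is known to respond to glucose, was at 34.6, 63.4 and 49.0 CPM in control, S961 and recovered (S961 over control 0.88, 0.75 to 1.00). The cell cycle inhibitor Cdkn1b was at 37.7 CPM in control and 60.1 in S961 (0.67, 0.55 to 0.80). The ubiquitin ligase Fbxo32 was at 7.23, 14.4 and 12.8 CPM (1.00, 0.72 to 1.28), and catalase, Cat, at 2.51, 4.38 and 2.36 CPM (0.80). Txnip and Fbxo32 were lowest in control and highest in S961, with recovered between, while Cat in recovered was near control. Unlike the members, genes of this list and of the lists before it were not recomputed by depth, mitochondrial share, cluster or thinning. Bcl6 was lower in S961, at 2.03 against 3.44 CPM (−0.76), and so was Rictor. Sod2, the mitochondrial superoxide dismutase, was lower in recovered than in S961 (122 against 153 CPM, −0.32).

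**Figure D5:**
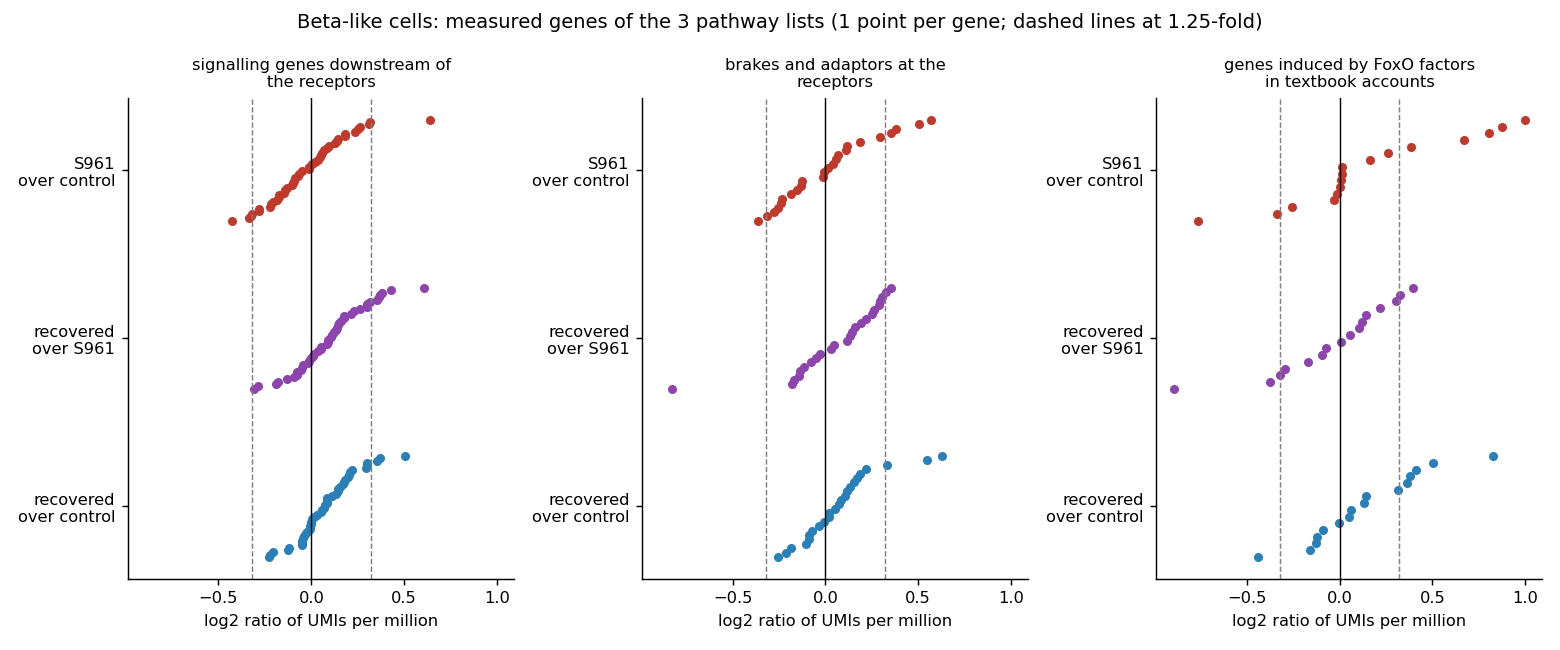
Each point is the log2 ratio of CPM of 1 measured gene in beta-like cells, in 3 panels for the downstream genes (44), the brakes and adaptors (24) and the FoxO list (16) and in 3 rows for the pairs of libraries; dashed lines mark the fold threshold. Most points lie between the dashed lines, and the FoxO list has points up to 1.00 (Fbxo32) and down to −0.76 (Bcl6) for S961 over control.

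The genes whose levels were most like those of each member were listed by Pearson correlation of log2(CPM + 10) over 19 sums of a class in a library, among 10444 genes that reached 20 CPM in at least 1 of these sums. Irs1 did not reach that level and was left out. The points share libraries, depth and leaked RNA, and the values are descriptions. Igf1r was most like Tmem65 (0.95), Gng12 (0.94), Siah2 (0.92) and Prss53 (0.91), and Insrr most like Adra2a (0.93), Vstm2l (0.92), Cdhr1 (0.91) and Tmprss4 (0.90). Insr was most like Cd200 (0.94), Slco3a1 (0.93), Sos1 (0.93) and Ehd3 (0.93); Sos1 is the exchange factor that links receptor kinases to Ras. Grb10 was most like Cul4b (0.89), Zwint (0.86), Faap100 (0.86) and Cul7 (0.83), Irs2 like Bola3 (0.90), Bhlhe41 (0.89), Phkb (0.89) and Mdh1 (0.86), and Igf2r like Smpd1 (0.85), Sun1 (0.84), Golga3 (0.84) and Abi2 (0.84). Among the members themselves, Igf1r and Insrr had the highest value at 0.77 and Insr and Irs2 the lowest at −0.55.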

How the data were processed

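Single-cell RNA was measured in islets of 3 libraries, 1 per group. The authors deposited raw UMI counts per gene and barcode, per the file headers and the whole-number values; the submitters' processing notes name Cell Ranger (no version) and mm10. Barcodes were assigned to libraries by the suffix in the labels. The table held 31053 genes and 24590 barcodes, and 38265969, 47651767 and 40102058 UMIs in control, S961 and recovered. Filters asked for 500 genes per barcode and no more than 20% mitochondrial UMIs. Scrublet doublets (expected rate 0.06) were left out, and cells were clustered with scanpy 1.11.5 (2000 variable genes, 30 components, 15 neighbours, leidenalg 0.10.2 at resolution 0.5). Classes were named from marker lists, hence "-like"; a name needed at least 3 markers at 20 CPM.

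UMIs were summed per class and library. Ratios carry exact conditional binomial intervals, levels exact Poisson intervals and shares exact Clopper-Pearson intervals, all at 95% and for counting error only; the ratio step was tested on simulated data. A gene was measured at 50 UMIs over 2 libraries. A count of 0 is given with the limit of 3 counts. All 7 members are named; from a list, up to 4 genes each way past the fold threshold, by the interval bound nearest to 0; and 4 genes by likeness. Members, lists and alternatives were chosen with earlier results of these data known. GENCODE M21 held 30464 of 31053 symbols. Python 3.11.15, numpy 2.4.6 and scipy 1.17.1 were used.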

Additional observations from a re-analysis of the deposited data

Results flagged for a closer look

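Grb10 differed in direction between 2 classes for recovered over S961. Its log2 ratio was 0.53 (0.28 to 0.79) in alpha-like cells, from 206 UMIs in recovered and 353 in S961, and −2.02 (−3.51 to −0.84) in endothelial-like cells, from 6 and 86 UMIs. The difference between the classes was not tested, since each group had 1 library. The recovered library held 81 endothelial-like cells.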

How the results depend on the processing

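No paired analysis was possible because each group had 1 library and no replicate numbers. Counts of members past the fold threshold in beta-like cells were 1 in each comparison and moved as follows. With 4 to 7% mitochondrial UMIs they were 3 for S961 over control and 3 for recovered over control; for recovered over S961 the count stayed 1 but the gene was Irs1, not Insrr. With all barcodes of at least 10% insulin UMIs S961 over control had 2, and past 1.5-fold it had 0. Thinned to 2000 UMIs, recovered over S961 had 2 and recovered over control 2. With the mean of the values of each cell recovered over S961 had 3. In 3 depth bands chosen after seeing the data (3000 to 6000, 6000 to 12000 and 12000 to 24000 UMIs), S961 over control had 6, 4 and 4, recovered over S961 3, 4 and 3, and recovered over control 5, 1 and 4. The 6 of the shallowest band were all lower in S961. Of all measured genes in these bands, S961 over control had 8.25%, 31.3% and 27.2% higher and 58.9%, 16.3% and 9.88% lower. For recovered over S961, 51.3%, 16% and 6.64% were higher and 15%, 18% and 20% lower. For recovered over control, 21.7%, 19.8% and 12.6% were higher and 17%, 5.96% and 7.58% lower. Shares of all genes under the other settings are not given here, so those counts have no background beside them. Over 70 ratios of single members in 5 classes there were 730 alternative values, of which 66 changed sign. For 59 of these the ratio first given was within the fold threshold, as for beta-like Insr (0.20, down to −0.93) and Insrr (0.16, down to −0.79) in S961 over control. The 7 past the threshold were Insrr in beta-like cells, recovered over S961, at 6000 to 12000 UMIs (−0.17); Insr in alpha-like cells, recovered over S961, without cells over 1% hormone UMIs of another class (−0.0905); Irs2 in delta-like cells, recovered over control, at 4 to 7% mitochondrial UMIs (0.10); and, with beta-cell RNA taken off, Igf1r in alpha-like cells for S961 over control (1.19) and recovered over control (1.38), and Igf1r (−0.65) and Insrr (−0.80) in delta-like cells for recovered over S961. The last 4 follow from the subtraction; for the others the cause was not tested. Alternatives that left under 50 cells in a library, or under 50 UMIs, gave no value, which removed the hormone filter for control in every class but beta. Depth limits Irs1 in every class and all members in macrophage- and stellate-like cells.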
